A study of Mus musculus with 16 samples.

Results

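Abca7 and 4 related genes for lipid exporters, Abca1, Abca2, Abca3 and Abcg1, were followed across thymocytes with and without Tox4. These 5 genes are a hand-chosen part of the 53 genes of the ATP-binding cassette (ABC) family in both count tables, which share 24974 genes. A few of the 53, such as Abce1, encode no transporter. Abca7 was selected on its lower level in Tox4 conditional knockout (cKO) CD8 cells, so its values in that comparison, its call included, chose it and stand here as a description, with no further test. The relatives were chosen by family and function, and the question was whether they, or Abca7 in double positive (DP) cells, share the lower level.

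The data were RNA-seq counts of polyA RNA from mouse thymocytes, in 3 DP control, 3 DP cKO, 5 CD8 control and 5 CD8 cKO samples. Control mice were homozygous for a floxed Tox4 allele (genotype Tox4 F/F, exons 4 to 6 between loxP sites) and carried no Cre, although their labels call them WT. The cKO mice carried the same floxed alleles with Cre under the proximal Lck promoter (labelled Lck+ for DP and Lck-cre for CD8), which is active in T cell precursors before the DP stage. By the study's methods the mice were sex-matched littermates 6 to 8 weeks old. Both cell types were sorted by flow cytometry, the CD8 cells as positive for TCRβ and CD8. The study's methods call replicates of its genomic assays biological, but neither they nor the labels tie each sample to a separate mouse, so p-values measure the spread between these samples, which may be technical. Total counts per sample ran from 16524506 to 18484568 in DP control, from 14583336 to 25981683 in DP cKO, from 9420085 to 13530783 in CD8 control and from 8514135 to 11828492 in CD8 cKO.

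ABC transporters use the energy of ATP to move substrates across or between the leaflets of membranes. Abca1 passes cholesterol and phospholipid to lipid-poor apolipoprotein A-I, and Abcg1 promotes the transfer of cholesterol to formed high-density lipoprotein. Abca7 is a close homologue of Abca1 that can export phospholipid and has been tied to phagocytosis, Abca2 sits mainly in endosomes and lysosomes, and Abca3 loads phospholipid into the lamellar bodies of lung epithelium. Abca1 and Abcg1 are well-known targets of the oxysterol receptors LXR, and in T cells sterol export through Abcg1 limits the cholesterol available during proliferation.

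A pair of libraries stood apart. The CD8 control replicate 1 library had counts in 17741 genes, against 13708 to 15054 genes in the other CD8 samples. Tox4 itself, in library-scaled CPM (counts scaled by the total and by the trimmed mean of M values, TMM CPM), was 154, 172 and 180 in the DP control samples and 133, 141 and 131 in the DP cKO samples, which did not overlap. In CD8 cells Tox4 was 197, 188, 200, 201 and 178 TMM CPM in control samples and 169, 185, 176, 234 and 164 in cKO samples. The library labelled cKO replicate 4 therefore had more Tox4 than every CD8 control. Reads outside exons 4 to 6 count towards Tox4 as well, so the gene total is a weak check of the label. By Western blot the study reports efficient Tox4 deletion in unsorted and sorted thymocytes of this genotype, a measure that does not check single samples. The CD8 fold changes of the 5 genes and the counts of CD8 calls are given below with and without each of these libraries, and other CD8 values are from all samples unless a left-out sample is named.

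Most markers of the labelled cell types differed between DP and CD8 control cells in the direction of their labels. Marker counts in this comparison are calls by the rule given further on. Over all genes that rule called 22.2% higher and 24.1% lower in CD8 control cells. Of 10 DP thymocyte markers 9 were lower in CD8 control than in DP control cells and 0 were higher, including the recombinase genes Rag1 (log2 fold change -7.26) and Rag2 (-5.65) and the coreceptor gene Cd4 (-5.89). Of 10 mature single-positive T cell markers 9 were higher in CD8 cells, including the egress receptor S1pr1 (7.73), the transcription factor Klf2 (6.22) and the chemokine receptor Ccr7 (4.62). Among the 7 CD8 lineage markers present, 5 were higher, with Itgae at 6.45, Eomes at 5.90 and Nkg7 at 5.53, and Cd8b1 was lower (-0.82). Eomes ran from 5.30 without DP control replicate 2 to 7.48 without DP control replicate 1, and Rag2 reached -6.25 without CD8 control replicate 1. The most abundant CD8 lineage gene was Cd8b1 in DP cells and Cd3e in CD8 cells. The CD4 lineage list summed to 1474 to 1859 TPM (counts scaled by exonic length and by library) in DP control samples and to 16.3 to 105 TPM in CD8 control samples. Cd4 made up most of that sum in DP cells. Foxp3, a regulatory T cell factor gene of the same list, was higher in CD8 control cells (2.43, and 3.05 without DP control replicate 2). The sum of the CD4 lineage list separated the CD8 replicates by number in both genotypes, being 105 and 102 TPM in control replicates 1 and 2 and 106 and 103 TPM in cKO replicates 1 and 2, against at most 31.4 TPM in the other CD8 samples.

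The counts table places Abca7 on mm10 chromosome 10 from 79997608 to 80015572, plus strand, with 46 merged exons and 6625 exonic bases. Abca7 was at 166, 199 and 229 TMM CPM in DP control, 186, 182 and 223 in DP cKO, 194, 196, 238, 234 and 212 in CD8 control, and 126, 137, 133, 128 and 151 in CD8 cKO samples. In these values the 3 other groups overlapped each other, and every CD8 cKO sample lay below every other sample. The TMM scaling of these values was done within each cell type, so DP and CD8 values do not share a common scaling. Per length, Abca7 was at 85.1 ± 10.4 TPM (SD, n = 3) in DP control, 82.5 ± 5.91 TPM (n = 3) in DP cKO, 105 ± 10.3 TPM (n = 5) in CD8 control and 67.6 ± 8.82 TPM (n = 5) in CD8 cKO cells. In TPM the highest CD8 cKO sample, at 82.1, overlapped the DP samples, whose lowest was 75.9, and lay below every CD8 control.

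**Figure D1:**
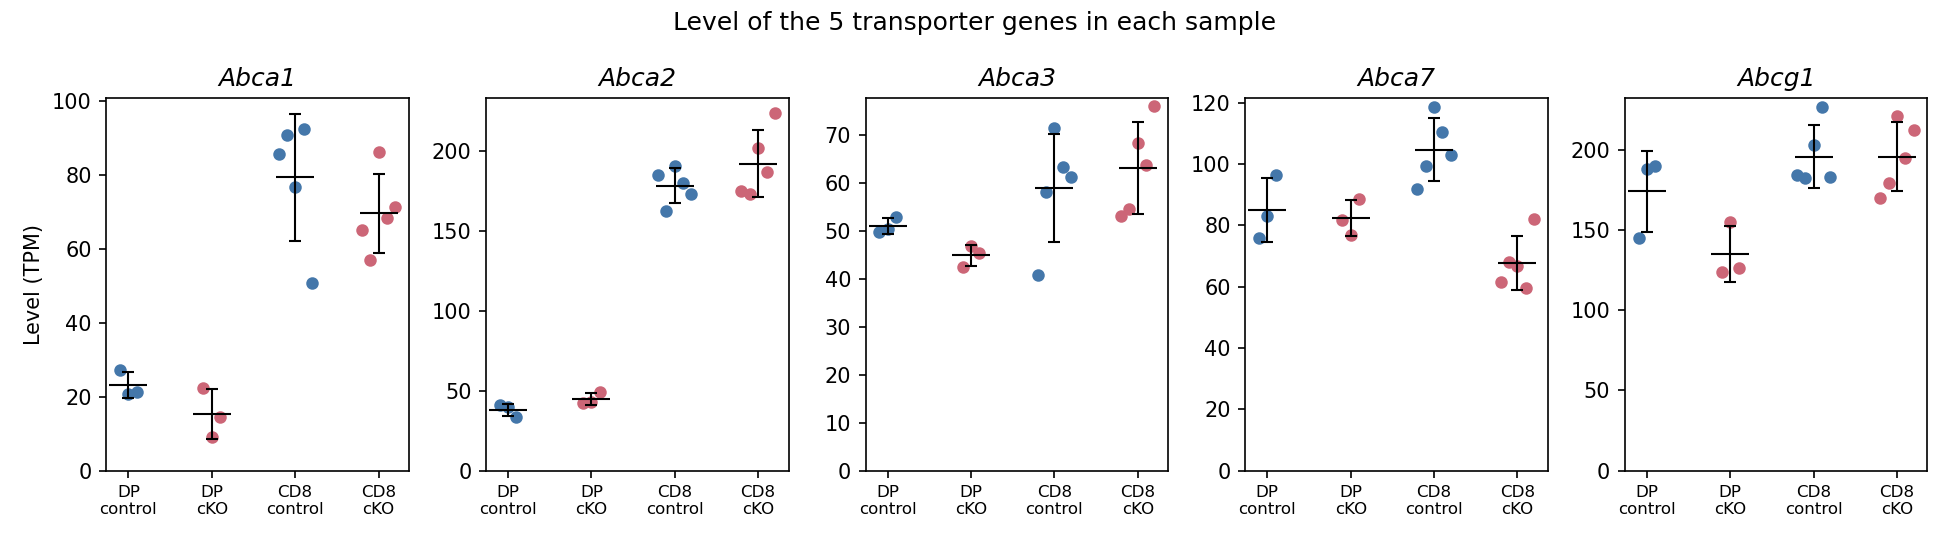
Level in TPM of each of the 5 transporter genes in every sample, with blue points for control and red points for cKO samples of DP (n = 3 per genotype) and CD8 (n = 5 per genotype) cells; horizontal lines are means and bars are SD. Abca7 averages 105 TPM in CD8 control and 67.6 TPM in CD8 cKO cells, whereas Abca1 and Abca2 differ mainly between DP and CD8 cells.

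The promoters of Abca7 and of Abca1, its closest homologue among the relatives, are shown so that the gene with the lower level in CD8 cKO cells can be read beside a relative that was not called there. The RefSeq promoter table (GRCm38.p6) matched 4 of the 5 genes and had no entry for Abcg1. Each sequence is the 250 bases before the start, 5′ to 3′ along the gene, at chr10:79996244-79996493 on the plus strand for Abca7 and chr4:53159896-53160145 on the minus strand for Abca1, with 3 motifs in capitals, namely GGGCGG (as in GC boxes), the promoter box CCAAT, and the core promoter motif TATAAA:
Abca7: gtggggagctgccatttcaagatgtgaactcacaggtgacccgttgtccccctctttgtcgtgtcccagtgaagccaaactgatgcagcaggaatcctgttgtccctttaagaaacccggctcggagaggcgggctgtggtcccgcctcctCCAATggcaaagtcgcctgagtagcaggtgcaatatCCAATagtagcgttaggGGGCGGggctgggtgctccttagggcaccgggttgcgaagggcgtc
Abca1: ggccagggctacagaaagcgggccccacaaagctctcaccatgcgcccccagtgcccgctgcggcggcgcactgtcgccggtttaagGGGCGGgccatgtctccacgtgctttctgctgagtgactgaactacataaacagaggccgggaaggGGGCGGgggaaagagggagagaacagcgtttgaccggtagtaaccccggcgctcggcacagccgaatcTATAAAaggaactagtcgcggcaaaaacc
Both strands were searched for these 3 motifs and for AGGTCA, a nuclear receptor half-site, and no matches overlapped. In these windows GGGCGG occurred 1 time in Abca7, 2 times in Abca1, 1 time in Abca3 and 0 times in Abca2. CCAAT occurred 2 times in Abca7 and in no other of the 4, TATAAA occurred 1 time in Abca1 only, and AGGTCA occurred in none of the 4. Of 32851 RefSeq promoters of the same length, 32.7% held GGGCGG, 33.8% held CCAAT, 14.0% held AGGTCA and 12.4% held TATAAA. The RefSeq start of Abca7 lies before the first base that the counts table gives for the gene.

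In CD8 cells Abca7 averaged 215 ± 20.7 TMM CPM (SD, n = 5) in control and 135 ± 9.76 (n = 5) in cKO samples, a 1.59-fold lower level (log2 fold change -0.67, standard error 0.09). It was lower in the cKO sample of 5 of 5 replicate numbers, with log2 differences from -0.86 to -0.49. The log2 fold change was -0.70 without CD8 control replicate 1 and -0.65 without the library labelled cKO replicate 4. In bulk RNA, fewer cells of a type that carries a transcript and less of it per cell cannot be told apart. A call needed a mean TPM of 1 or more, a 1.5-fold difference and, in the quasi-likelihood F test of edgeR, an adjusted p below 0.05. By this rule 10 genes were higher and 1, Abca7, was lower in CD8 cKO cells, which is 0.0994% of 11069 genes (0.00903% for lower genes), and nothing is read from the count of members because this comparison chose Abca7. The gene just outside the rule on the lower side was Gimap4, a GTPase of lymphocytes, at 527 TPM in control and 380 TPM in cKO cells, with a log2 fold change of -0.51 that missed the fold threshold. With replicate number as a block 25 genes were called higher and 6 lower, and with DESeq2 35 higher and 11 lower, and no relative of Abca7 was among either. The edgeR calls, 11 in all, numbered 15 without control replicate 1 and 20 without the library labelled cKO replicate 4, and fell to 4, 6 and 7 without control replicate 3, control replicate 5 and cKO replicate 3.

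None of the relatives passed the test in CD8 cells. Abca1 was at 279, 278, 239, 302 and 161 TMM CPM in CD8 control and 207, 178, 266, 227 and 203 in CD8 cKO samples, and the groups overlapped, with the lowest sample a control. Its log2 fold change was -0.22 (95% confidence interval -0.55 to 0.10, edgeR adjusted p = 0.979; lower in 3 of 5 pairs). Without CD8 control replicate 5, the lowest control, the log2 fold change of Abca1 was -0.35 and the exact permutation p of its TMM CPM was 0.0317, not adjusted for the genes and left-out samples tried, and without CD8 control replicate 4 the log2 fold change was -0.15. Abcg1 ran from 316 to 420 TMM CPM in control and from 306 to 387 in cKO samples (log2 fold change -0.04, interval -0.25 to 0.17, adjusted p = 0.988; lower in 2 of 5 pairs). Abca2 ran from 394 to 477 TMM CPM in control and from 428 to 504 in cKO samples (log2 fold change 0.07, interval -0.11 to 0.25, adjusted p = 0.979; lower in 1 of 5 pairs). Abca3 ran from 84.0 to 140 TMM CPM in control and from 107 to 136 in cKO samples (log2 fold change 0.06, interval -0.21 to 0.34, adjusted p = 0.984; lower in 2 of 5 pairs).

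None of these 4 relatives was called in CD8 cells by edgeR, 0 had an unadjusted p under 0.05, and 0 were called by DESeq2. Over all genes edgeR called 0.0994% and DESeq2 46, and 629 of 11227 had an unadjusted p under 0.05. A count of 0 of 4 is therefore also the usual outcome for other genes. In 2-sided exact permutation tests of the TMM CPM the relatives gave p = 0.238 for Abca1, 0.341 for Abca2, 0.667 for Abca3 and 0.738 for Abcg1, where 5 against 5 samples can reach 0.0079. Without CD8 control replicate 1 the log2 fold changes were -0.18 for Abca1, 0.09 for Abca2, -0.04 for Abca3 and -0.05 for Abcg1. Without the library labelled cKO replicate 4 they were -0.24, 0.06, 0.03 and -0.06 in the same order. The sign for Abca3 turned with control replicate 1 left out, and that for Abcg1 turned without control replicate 4 (0.04) and without cKO replicate 1 (0.0018).

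**Figure D2:**
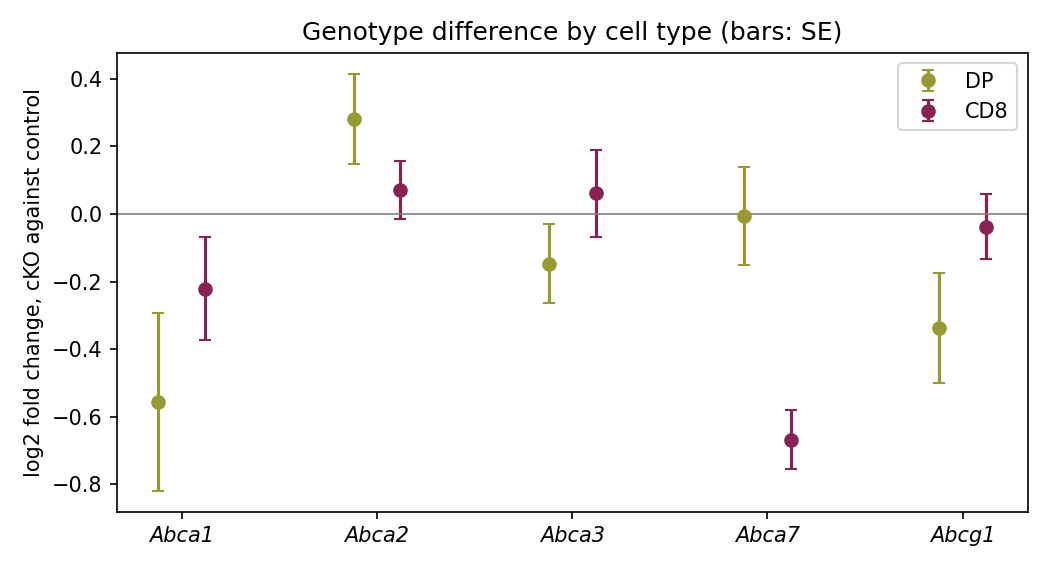
Log2 fold change of cKO against control for the 5 transporter genes in DP and CD8 cells from edgeR, with bars of 1 standard error. Abca7 stands at -0.67 in CD8 and at -0.01 in DP cells, a DP sign that turns to 0.01 with upper-quartile scaling, and the 4 relatives lie between -0.22 and 0.07 in CD8 cells.

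In DP cells Abca7 differed between the genotypes by less than the spread between the samples. The log2 fold change was -0.01 (95% confidence interval -0.34 to 0.32, edgeR adjusted p = 0.989), with lower cKO values in 2 of 3 same-numbered samples. The exact permutation test gave p = 1, where 3 against 3 samples cannot go below 0.1. The sign was not stable, as the value was 0.01 with upper-quartile scaling and 0.10 without DP control replicate 3. The difference between the CD8 and the DP fold changes of Abca7 was -0.67 (standard error 0.17), a description that is built from the CD8 values that chose the gene. The cell types come from separate tables, so cell type and library set cannot be told apart in that difference.

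The relatives in DP cells had wider intervals than in CD8 cells for Abca1, Abca2 and Abcg1. Abca1 was at 92.7, 76.8 and 78.5 TMM CPM in DP control and 78.9, 33.3 and 56.0 in DP cKO samples. The groups overlapped by a single sample, and cKO replicate 2 was the lowest. The log2 fold change of Abca1 was -0.56 (interval -1.15 to 0.04, edgeR adjusted p = 0.587), and it was -0.30 without DP cKO replicate 2 and -0.88 without DP cKO replicate 1. Abcg1 was at 279, 394 and 395 TMM CPM in DP control and 247, 320 and 277 in DP cKO samples, which overlapped. Its log2 fold change was -0.34 (interval -0.70 to 0.03, adjusted p = 0.592), and it ran from -0.49 to -0.25 with a sample left out. Abca2 was at 110, 116 and 98.4 TMM CPM in control and 119, 123 and 152 in cKO samples, with every cKO sample above every control (log2 fold change 0.28, interval -0.02 to 0.58, adjusted p = 0.586). The value was 0.17 without DP cKO replicate 3. Abca3 ran from 107 to 122 TMM CPM in control and from 94.4 to 111 in cKO samples (log2 fold change -0.15, interval -0.41 to 0.12, adjusted p = 0.783). It was -0.08 without DP cKO replicate 1. Among same-numbered DP samples Abca1, Abca3 and Abcg1 were lower in cKO in 3 of 3 and Abca2 in 0 of 3.

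Of the 5 genes 0 were called in DP cells by edgeR, 0 had an unadjusted p under 0.05 and 0 were called by DESeq2, beside 17 calls, or 0.152%, among 11187 genes. The exact permutation p was 0.3 for Abca1 and Abca3, 0.2 for Abcg1 and 0.1 for Abca2. The number of DP calls over all genes moved from 17 to 163 with DESeq2 and to 131 with replicate number as a block, and no member was called in either. Leaving out a single sample lowered it to between 0 (without DP control replicate 2) and 8 (without DP control replicate 1).

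Most tested markers of mature T cells, dendritic cells and macrophages had negative log2 fold changes in DP cKO cells, although 0 were called by edgeR. All 10 tested mature single-positive T cell markers had a negative log2 fold change in DP cKO cells (median -0.55), and 0 were called by edgeR, 6 had an unadjusted p under 0.05 and 3 were called by DESeq2. Over all genes 1079 of 11748 had an unadjusted p under 0.05 and 163 were called by DESeq2. The mature markers summed to 1193, 1054 and 949 TPM in DP control and 834, 806 and 752 TPM in DP cKO samples, with Gimap6 the most abundant and none at 0. Dendritic cell markers summed to 142, 286 and 118 TPM in DP control and 60.0, 89.2 and 107 TPM in DP cKO samples, with Cd74 the most abundant, 5 of 6 tested markers negative, 0 called by edgeR, 2 with an unadjusted p under 0.05 and 2 called by DESeq2. Macrophage markers summed to 65.9, 137 and 62.7 TPM in control and 57.2, 53.4 and 62.9 TPM in cKO samples, with 6 of 8 tested markers negative, 0 called by edgeR, 5 with an unadjusted p under 0.05 and 1 called by DESeq2. The most abundant macrophage gene was Lyz2 in DP control and Cd68 in DP cKO samples, and Marco was at 0 in DP control. The highest macrophage and dendritic cell sums were both those of DP control replicate 2, and Cd68 was higher in DP cKO cells (log2 fold change 0.63, every cKO sample above every control). Abca1 and Abcg1 were also lower by estimate in DP cKO cells, and the part of these lists in those values was not tested.

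CD8 lineage markers also summed lower in DP cKO samples, at 6345, 5624 and 5915 TPM against 7552, 6524 and 6718 TPM in control, with 5 of 6 tested markers negative, 0 called by edgeR, 2 with an unadjusted p under 0.05 and 1 called by DESeq2. CD4 lineage markers, mostly Cd4 itself, averaged 1695 and 1685 TPM in DP control and DP cKO samples. Of these 3 of 4 were negative (median -0.81, Zbtb7b -1.08 and Cd40lg -1.20), 0 were called by edgeR, 2 had an unadjusted p under 0.05 and 1 was called by DESeq2. The DP thymocyte markers averaged 13987 and 12558 TPM (most abundant Rag1), with 5 of 10 negative, 1 with an unadjusted p under 0.05 and 0 called by DESeq2. B cell markers averaged 52.7 TPM in DP control and 42.7 TPM in DP cKO samples (most abundant Cd79b, all 4 tested negative, 2 with an unadjusted p under 0.05 and 0 called by DESeq2), and thymic epithelium or stroma markers 136 and 134 TPM (most abundant Pecam1, with Foxn1 and Col3a1 at 0). Gamma-delta T or NK cell markers averaged 3.86 and 1.27 TPM. Only 4 of the 7 genes of that list were in the counts, none of them a T cell receptor gene, and Klrd1 was the most abundant. Erythroid or platelet markers averaged 3.97 and 8.19 TPM with the 4 globin genes of the list at 0 in both. The 1 tested gene of the erythroid or platelet list, Itga2b, was higher in every DP cKO sample than in every control (log2 fold change 1.20), with an unadjusted p under 0.05 and a DESeq2 call. Neutrophil markers ran from 2.48 to 17.2 TPM in DP control and from 3.44 to 5.29 TPM in DP cKO samples. In CD8 cells 0 genes of any marker list were called between genotypes by edgeR or by DESeq2, and no list held more than 1 gene with an unadjusted p under 0.05. Over all genes in CD8 cells edgeR called 11 of 11069 and DESeq2 46, and 629 of 11227 had an unadjusted p under 0.05. Gamma-delta T or NK cell markers ran from 77.2 to 99.7 TPM in CD8 control and from 79.5 to 149 TPM in CD8 cKO samples. Here too only 4 of their 7 genes were present, with Klrd1 the most abundant. Dendritic cell markers ran from 56.0 to 171 and from 81.9 to 123 TPM. These 2 lists were higher in the cKO sample of 3 of 5 and 4 of 5 same-numbered pairs. Thymic epithelium or stroma markers averaged 209 TPM in CD8 control and 248 TPM in CD8 cKO samples (most abundant Pecam1, with Psmb11 at 0 in cKO). Most of that sum was Pecam1, which alone averaged 174 TPM over the control samples of both cell types. Erythroid or platelet markers averaged 5.42 and 8.93 TPM (most abundant Itga2b, with the 4 globin genes at 0). Each was higher in the cKO sample of 4 of 5 pairs. DP thymocyte markers averaged 3697 and 3454 TPM, lower in the cKO sample of 4 of 5 pairs. The most abundant of them in both CD8 groups was the coreceptor gene Cd8b1, which is also on the CD8 lineage list, so this sum is no measure of DP cells. Macrophage markers summed to 51.1, 44.8, 31.9, 31.9 and 32.9 TPM in CD8 control and 64.1, 83.3, 41.9, 32.2 and 53.9 TPM in CD8 cKO samples, higher in the cKO sample of 5 of 5 pairs, with Cd68 the most abundant and Marco at 0 in CD8 cKO samples. Only 2 of the 10 macrophage markers could be tested there, Cd68 (log2 fold change 0.52) and Itgam (-0.03), and neither was called. The part of these lists in the level of Abca7 was not tested.

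The difference of the genotype effect between the cell types was also tested for the relatives. The CD8 minus DP log2 difference was 0.33 for Abca1 (adjusted p = 0.963 from edgeR), 0.30 for Abcg1 (0.95), -0.22 for Abca2 (0.95) and 0.21 for Abca3 (0.966). For Abca1 it ran from 0.06 without DP cKO replicate 2 to 0.66 without DP cKO replicate 1, and with a sample left out from -0.28 to -0.08 for Abca2, from 0.10 to 0.27 for Abca3 and from 0.22 to 0.45 for Abcg1. None of the 4 passed, 0 had an unadjusted p under 0.05 and 0 passed with DESeq2, beside 13 of 12131 genes (0.107%) with an adjusted p under 0.05. That number fell to 0 without DP control replicate 2 or without DP cKO replicate 2, and was 5 without CD8 control replicate 1 and 2 without the library labelled cKO replicate 4.

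Between the cell types themselves, Abca1 and Abca2 were higher in CD8 control than in DP control cells. Abca2 was at 38.0 ± 3.78 TPM (SD, n = 3) in DP and 178 ± 10.9 TPM (n = 5) in CD8 control cells, and rose 4.37-fold in the TMM-scaled fit, with an edgeR adjusted p = 4.2e-11 and every CD8 sample above every DP sample. Abca1 was at 23.1 ± 3.63 TPM and 79.3 ± 17.1 TPM and rose 3.21-fold in the TMM-scaled fit (adjusted p = 6.29e-06), again without overlap, and for both genes the exact permutation p = 0.0179 was the smallest that 3 against 5 samples allow. For Abca1 the exact permutation p was 0.0571 when any 1 of CD8 control replicates 1 to 4 was left out, and its edgeR call held. Over all genes 22.2% of 11534 were called higher and 24.1% lower in CD8 cells, so that 2 of 5 members called higher is to be read against a broad difference that also separates the library sets. Abca7 was at a log2 difference of 0.19 (adjusted p = 0.163), Abca3 at 0.11 (0.533) and Abcg1 at 0.06 (0.69), a sign that turned for Abcg1 without DP control replicate 1 (-0.06) and without CD8 control replicate 4 (-0.01).

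Per length, the order in DP control cells was Abcg1 (174 ± 25.4 TPM), Abca7 (85.1 ± 10.4 TPM), Abca3 (51.0 ± 1.57 TPM), Abca2 (38.0 ± 3.78 TPM) and Abca1 (23.1 ± 3.63 TPM), where no neighbours overlapped in mean ± SD. In CD8 control cells it was Abcg1 (196 ± 19.4 TPM), Abca2 (178 ± 10.9 TPM), Abca7 (105 ± 10.3 TPM), Abca1 (79.3 ± 17.1 TPM) and Abca3 (58.9 ± 11.3 TPM), where mean ± SD overlapped for Abcg1 and Abca2, for Abca7 and Abca1, and for Abca1 and Abca3. In CD8 cKO cells Abca1 (69.6 ± 10.7 TPM), Abca7 (67.6 ± 8.82 TPM) and Abca3 (63.1 ± 9.53 TPM) overlapped in this way, below Abcg1 (195 ± 21.5 TPM) and Abca2 (192 ± 21.0 TPM), which overlapped as well. In DP cKO cells the order was Abcg1 (135 ± 17.4 TPM), Abca7 (82.5 ± 5.91 TPM), Abca2 (44.8 ± 3.91 TPM), Abca3 (44.8 ± 2.20 TPM) and Abca1 (15.3 ± 6.68 TPM), with only Abca2 and Abca3 overlapping. The 5 genes together made up 371 ± 29.0 TPM in DP control, 322 ± 8.90 TPM in DP cKO, 617 ± 46.4 TPM in CD8 control and 588 ± 64.1 TPM in CD8 cKO cells, and in control cells this was 18.5% (DP) and 29.2% (CD8) of the summed TPM of all ABC genes.

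Within the whole family, 29 of 53 ABC genes had enough counts to be tested in DP cells and 29 in CD8 cells. By mean TPM the most abundant in DP control cells were the peptide transporter gene Tap2 (376 TPM), Abcc5 (224 TPM), Abcf1 (180 TPM), Abcg1 (174 TPM) and the peptide transporter gene Tap1 (142 TPM). In CD8 control cells they were Tap1 (335 TPM), Tap2 (227 TPM), Abcg1 (196 TPM), Abca2 (178 TPM) and the ribosome recycling factor gene Abce1 (177 TPM). Abca7 was at position 10 of 53 in DP control, 9 in DP cKO, 7 in CD8 control and 10 in CD8 cKO cells. In DP cells 0 ABC genes were called by edgeR and 0 by DESeq2, and 4 had an unadjusted p under 0.05. Over all genes there were 17 edgeR calls (0.152% of 11187), 163 DESeq2 calls and 1079 of 11748 under 0.05. In CD8 cells, where Abca7 was chosen by its call, 0 other ABC genes were called by edgeR or by DESeq2, and 4 others had an unadjusted p under 0.05. All genes together gave 11 edgeR calls (0.0994% of 11069), 46 DESeq2 calls and 629 of 11227 under 0.05. The median log2 fold change of the tested ABC genes was -0.01 in DP and -0.01 in CD8 cells, beside -0.0011 and -0.0060 over all genes tested.

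**Figure D3:**
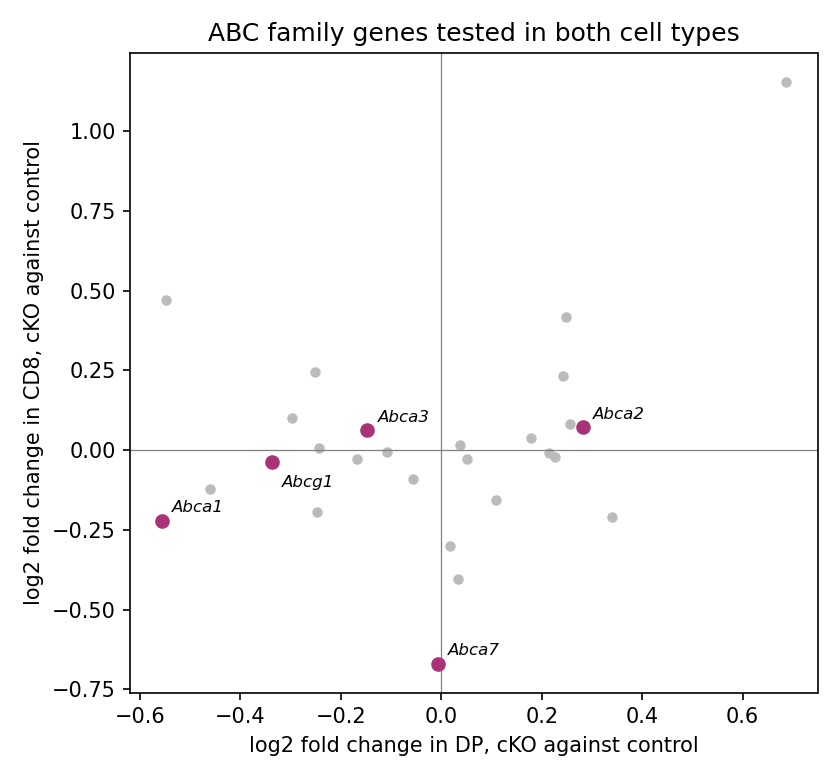
Log2 fold change of cKO against control in DP cells (x axis) and CD8 cells (y axis) for ABC family genes tested in both, with the 5 named genes in purple and the others in grey. Abca7 is the lowest point on the CD8 axis at -0.67 and stands at -0.01 on the DP axis, 0.01 with upper-quartile scaling.

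Between CD8 and DP control cells 9 ABC genes were called higher and 6 lower of 30 tested, beside 22.2% and 24.1% of all genes. Among these called genes the largest rises were those of the multidrug exporter genes Abcb1a (log2 fold change 4.58), Abcb1b (3.50) and Abcc1 (2.51), while Abcd2, which rose by 2.75, was under the TPM threshold. The largest falls were those of the phosphatidylcholine floppase gene Abcb4 (-3.36), Abcc5 (-1.89) and the multidrug exporter gene Abcg2 (-1.65). Abca2 and Abca1 were among the 9 that rose.

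Other genes of lipid export and sterol control were counted by list. In the DP and CD8 genotype comparisons 0 genes of these lists were called by edgeR without a block, and DESeq2 called 1 in DP and 0 in CD8 cells. In CD8 cells this was also 0 by edgeR without control replicate 1 and without the library labelled cKO replicate 4. Over all genes an unadjusted p under 0.05 was found for 1079 of 11748 in DP and 629 of 11227 in CD8 cells, and DESeq2 called 163 and 46, a background for the counts by list. For the other cholesterol and phospholipid exporters of the ABC family, 2 of 6 tested had an unadjusted p under 0.05 in DP and 1 of 6 in CD8 cells, for LXR and RXR receptors 0 of 4 in both, and for LXR targets outside the family 1 of 10 in DP and 0 of 10 in CD8 cells. For SREBP2 and its targets this held for 2 of 23 in DP and 2 of 22 in CD8 cells, for cholesterol storage, uptake and transport 1 of 10 and 0 of 9, for flippases and scramblases 2 of 15 in both, and for sphingolipid exporters 2 of 5 and 2 of 4.

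Between the cell types the calls of these lists are to be read against the 22.2% of all genes called higher and the 24.1% called lower in CD8 control cells. The LXR partner gene Rxra was the 1 of 4 receptors called, higher in CD8 control cells (log2 fold change 1.77), whereas Nr1h2, which encodes LXR beta and stood at 201 TPM over control samples, was at -0.32. Of 10 tested LXR targets, Smpdl3a (2.16) and the fatty acid synthase gene Fasn (0.98) rose and the apolipoprotein gene Apoe (-2.41) fell, and the most abundant, Scd2, was at -0.02. Most macrophage markers fell in the same comparison, with 5 called lower and 1 higher of 8 tested (median -3.17, C1qa -5.57, Lyz2 -3.97 and Cd68 0.71). Without DP control replicate 2 C1qa was at -4.78 and Lyz2 at -3.23. Cd68, the 1 called higher, lost its call without DP control replicate 3 (0.64). The macrophage markers summed to 65.9, 137 and 62.7 TPM in DP control and 51.1, 44.8, 31.9, 31.9 and 32.9 TPM in CD8 control samples. The most abundant was Lyz2 in DP and Cd68 in CD8 cells, with Marco at 0 in DP. The part of the macrophage markers in the lower Apoe level was not tested. Of 23 SREBP2 genes 8 fell and 0 rose, beside 24.1% and 22.2% of all genes, including the sterol synthesis gene Pmvk (-1.67) and Srebf2 itself (-0.69). Median log2 fold change for that list was -0.33, beside -0.03 over all genes tested.

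Beside the same 22.2% higher and 24.1% lower over all genes, 3 rose and 3 fell of 7 tested other ABC exporters of the list, with Abcg3 at -1.01. Among genes of cholesterol storage, uptake and transport, the high-density lipoprotein receptor gene Scarb1 rose (0.84), and the lysosomal lipase gene Lipa (-0.96), the cholesterol esterifying enzyme gene Soat1 (-0.92) and Stard3 (-0.78) fell, of 10 tested. Phospholipid flippases and scramblases counted 6 higher and 3 lower of 16, including Atp8b4 (5.94), Atp8a2 (4.03) and Atp10d (1.95) above, and Atp10a (-1.23), the scramblase gene Ano6 (-1.19) and Atp9a (-0.84) below. Atp8a2 ran from 3.49 without DP control replicate 2 to 4.92 without DP control replicate 1. Of 5 sphingolipid exporters, the sphingosine-1-phosphate exporter gene Mfsd2b rose (1.01), and Spns3 (-2.39) and Spns1 (-1.02) fell.

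The genes beside Abca7 were called in neither genotype comparison. No gene in the counts table overlaps Abca7. Before it lie Cnn2 (2207 bases away, plus strand), Tmem259 (13347 bases, minus strand) and the glutamate receptor gene Grin3b (20417 bases, plus strand), and after it Arhgap45 (1099 bases, plus strand), the RNA polymerase II subunit gene Polr2e (20380 bases, minus strand) and the lipid peroxidase gene Gpx4 (31593 bases, plus strand). The log2 fold changes in CD8 cells were -0.05 for Cnn2, -0.03 for Tmem259, -0.14 for Arhgap45, -0.13 for Polr2e and -0.04 for Gpx4, and Grin3b had too few counts to be tested. In DP cells they were -0.36 for Cnn2, 0.22 for Tmem259, 0.04 for Arhgap45, 0.03 for Polr2e and 0.08 for Gpx4. None of the 5 tested neighbours was called by edgeR or by DESeq2 in either, and 1 in DP and 0 in CD8 cells had an unadjusted p under 0.05. Over all genes edgeR called 0.152% in DP and 0.0994% in CD8 cells, and DESeq2 called 163 and 46 genes. An unadjusted p under 0.05 was found for 1079 of 11748 genes in DP and 629 of 11227 in CD8 cells. A count of 0 calls is therefore also the usual outcome for other genes. Left-out samples turned the sign for Arhgap45 and Polr2e in DP cells and for Cnn2, Tmem259 and Gpx4 in CD8 cells. Of 12 genes next to or overlapping the relatives, 3 could be tested in each cell type and 0 were called by edgeR or by DESeq2, with 0 at an unadjusted p under 0.05.

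**Figure D4:**
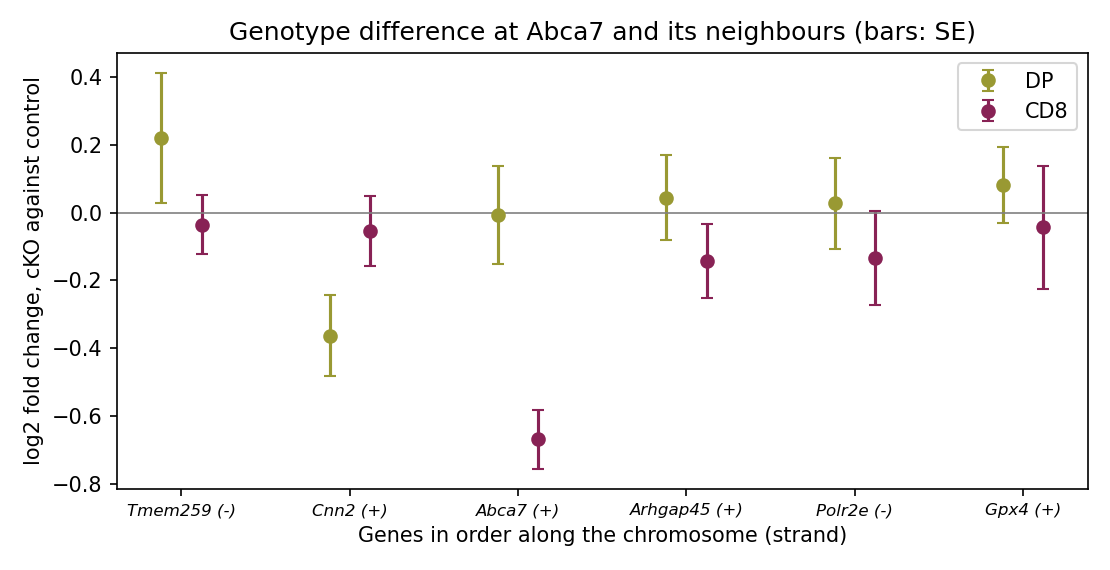
Log2 fold change of cKO against control at Abca7 and its tested neighbours, in chromosome order with the strand in brackets, for DP and CD8 cells; bars are 1 standard error. Abca7 is at -0.67 in CD8 cells, and its neighbours lie between -0.14 and -0.03 there, values whose sign turns for Cnn2, Tmem259 and Gpx4 when single samples are left out.

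Between the cell types the neighbours differed in both directions, with Cnn2, which encodes a calponin, higher (log2 fold change 1.53) and Gpx4 lower (-1.60) in CD8 control cells. Arhgap45 and Polr2e were called lower at -0.59 each, just past the fold threshold, and under the RLE and upper-quartile scalings neither was called (-0.56 for both, and -0.58 for both). The same held with DESeq2, with no filter on low counts and with at least 10 counts in every sample. Each also lost its call without CD8 control replicate 2 (-0.58 and -0.54) and without CD8 cKO replicate 5 (-0.57 for both), Arhgap45 also without DP control replicate 3 or CD8 control replicate 1 (-0.49 and -0.55), and Polr2e also without DP control replicate 1 or CD8 control replicate 3 (-0.57 and -0.55).

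Genes most like Abca7 over the 10 CD8 samples, by Pearson r of log2 TMM CPM, were Phlpp2 (r = 0.970), Gimap4 (0.943), Enpp5 (0.937), Cul9 (0.935) and AI413582 (0.928). This ranking is over samples of both genotypes, whose difference chose Abca7. It therefore favours genes that are lower in CD8 cKO cells, and nothing is read from it. The relatives had r = 0.301 for Abca1, 0.262 for Abcg1, 0.0495 for Abca3 and -0.203 for Abca2. Over all 16 samples, which also share their cell type and library set, the most like Abca7 were Arhgap4 (r = 0.790), Tcirg1 (0.755), Celsr2 (0.741), Pkp3 (0.740) and Mfsd10 (0.729). That ranking also uses the CD8 cKO values that chose Abca7, and nothing is read from it. Abca1 and Abca2 had r = 0.900 with each other over all 16 samples, and Abca3 and Abcg1 had r = 0.650. Of 11533 genes Abca2 ranked 922 by r with Abca1, and Abca1 ranked 1506 by r with Abca2. Abcg1 ranked 337 by r with Abca3, and Abca3 ranked 309 by r with Abcg1. Many other genes were thus more alike, and nothing is read from the r of these pairs. The most like genes were Trim30d, Usp12 and Trim21 for Abca1 (each r = 0.967), Il27ra (0.994), Iqsec1 (0.994) and B4galnt1 (0.993) for Abca2, Atg2b (0.918), Ubap1 (0.915) and Snx5 (0.891) for Abca3, and Ranbp9 (0.884), Tob1 (0.884) and Irf1 (0.867) for Abcg1.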

How the data were processed

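RNA-seq fragments were counted per gene in DP and CD8 thymocytes of control and cKO mice. By the submitters' processing notes the authors used fastp 0.13.1, HISAT2 2.1.0 and featureCounts 1.6.1 with mm10, in strand-specific mode, and deposited raw counts with no normalization. The deposited DP table also gives, as other values, the exonic length in bases that TPM used. The members and lists were chosen with earlier results of these data known.

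Counts were analysed in R 4.3.3 with edgeR 4.0.16 (TMM, filterByExpr, quasi-likelihood F test, Benjamini-Hochberg adjustment over all genes tested), within each cell type for cKO against control and over all 4 groups for the comparisons across cell types. Calls needed an adjusted p below 0.05, a 1.5-fold difference and a mean TPM of 1 or more. Single members were also compared by 2-sided exact permutation tests of TMM CPM. Intervals are 95% from the fit. The correlations used log2 CPM with a prior count of 2. Figures were drawn with matplotlib 3.10.9. The fit was tested on simulated data, but the outcome is not reported here and no value rests on it.

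Named genes were the members, Tox4, ABC genes called between genotypes or with the 10 highest mean control TPM, the 3 most abundant of each pathway list and up to 3 called each way between cell types, the nearest neighbours, and the genes most correlated with a member. Some genes that this rule names are not reported here. Single marker genes and Abcd2 are named outside this rule, with their values known. Alternatives were RLE and upper-quartile scaling, DESeq2 1.42.0, no filter or at least 10 counts in every sample, a replicate block, all 4 groups together, no fold or TPM threshold, and each sample left out.

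Same-numbered control and cKO samples had correlated deviations from their group means, from 0.100 to 0.389 in CD8 cells, where the lowest is barely over the minimum of 0.1 set for pairing, and from 0.0803 to 0.708 in DP cells, where the samples were therefore taken only to share a number. Differently numbered samples ran from -0.495 to 0.460 in CD8 cells (mean -0.0803, same-numbered 0.309). In DP cells they ran from -0.560 to 0.367 (mean -0.181, same-numbered 0.380). Some differently numbered samples were thus as alike as same-numbered ones. No 2 replicates agreed within sampling noise (26 pairs, chi-square per gene from 5.91 to 64.4).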

Additional observations from a re-analysis of the deposited data

Results flagged for a closer look

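Of 74 sets of 4 to 10 samples checked for a sample far from the others, 5 held one, where chance gives 3.7 at 1 in 20. A narrower check of fewer sets had held none and was then widened to every value reported, so the count is not that of a single planned check. In CD8 control cells replicate 1 had 17741 genes with a count, against 14194 in the next sample, and a B cell marker sum of 65.5 TPM, against 28.4 TPM. In CD8 cKO cells the library labelled replicate 4 had a CD8 lineage marker sum of 9004 TPM, against 7763 TPM in the next, replicate 2 had 1.27 TMM CPM of Abcb4, against 0.170, and replicate 1 had a neutrophil marker sum of 1.81 TPM, against 0.881 TPM.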

How the results depend on the processing

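Calls between DP genotypes numbered 17 and moved to 163 with DESeq2 (94 higher, 69 lower), 74 with no filter on low counts, 131 with the replicate block (74 higher, 57 lower), 42 with all 4 groups together, and 0 to 8 with a sample left out. Calls between CD8 genotypes numbered 11 and moved to 46 with DESeq2, 31 with the replicate block, and 4 to 20 with a sample left out, the lowest without control replicate 3 and the highest without the library labelled cKO replicate 4. Genes whose genotype effect differed between cell types numbered 13 and moved to 3 with upper-quartile scaling, 37 with DESeq2, 33 with the replicate block, and 0 to 11 with a sample left out. The cause of these moves was not tested. The 5347 calls between cell types stayed within 1.5 times, from 5019 to 5386 with a sample left out.

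Abca7 in CD8 cells ran from -0.71 to -0.63 with a sample left out. Its DP value turned to 0.0109 with upper-quartile scaling, and ran from -0.12 to 0.10 with a sample left out (level ratio -0.12 to 0.11). With scaling by total counts the Abcg1 level ratio between cell types turned to -0.0137. With a sample left out, signs turned for Abca3 in CD8 (-0.0385 to 0.13, level ratio -0.0373 to 0.13), Abcg1 in CD8 (-0.0796 to 0.0358, level ratio -0.0824 to 0.0337) and Abcg1 between cell types (-0.0623 to 0.14, level ratio -0.0826 to 0.15). So they did for the neighbours Arhgap45 (-0.0414 to 0.14) and Polr2e (-0.0533 to 0.13) in DP, and Gpx4 (-0.16 to 0.0683), Tmem259 (-0.0699 to 0.0227) and Cnn2 (-0.12 to 0.0075) in CD8 cells. No relative was called between genotypes by edgeR or DESeq2 under any alternative, the lowest adjusted p being 0.114 for Abca1 in DP cells with the replicate block, in a range up to 0.939. The exact permutation p of Abca1 in CD8 cells was 0.238, and it was 0.0317 without CD8 control replicate 5 (level ratio -0.35). Between cell types genes including Arhgap45, Polr2e, Cd74, Pecam1, H2-Ab1 and Cd68 lost their call under some alternatives.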
